A study of Mus musculus with 8 samples.

Results

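The array used here carried 55681 probes, and 16194 of them were named only by a stretch of the mouse genome (build mm9) in place of a gene. These interval probes were taken by their name, which begins with a chromosome and a pair of coordinates and ends in F (forward strand) or R (reverse strand). They covered 3543 intervals and 4610 interval strands, which merge into 2226 separate loci. The interval names carry no gene, so each is called by its coordinates and by the named genes whose probes lie nearest on the array.

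Mouse bone marrow cells were compared in 4 groups of 2 arrays each. All groups came from mice with the transgene Tg(CAG-DsRed*MST)1Nagy on a B6.Cg background, a DsRed reporter under the ubiquitous CAG promoter. Control, IL-4 and LPS cells were bone marrow-derived macrophages grown for 7 days with M-CSF, and then left in medium, given IL-4 for 24 hours or given LPS for 24 hours. Colony cells were bone marrow cells kept for 7 days on an endothelial monolayer in haematopoietic stem cell medium, without the M-CSF culture, so that substrate and medium differ together from the macrophages. Age, sex and the number of mice are not given in the sources used here. The labels do not say whether both arrays of a group read separate mice or cultures, so that p-values measure the spread between these samples, which may be technical. How endothelial cells were removed from the colony cells before RNA extraction is not given in the sources used here.

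Long intergenic noncoding RNAs are transcripts that lie between protein-coding genes and are not translated into a known protein. Many are short-lived or nuclear, some carry a polyA tail and some do not, and some are the host transcripts of microRNAs. In macrophages, the bacterial product LPS acts through Toll-like receptor 4 and NF-kappaB and induces several such RNAs together with cytokine genes. IL-4 acts through STAT6 and drives the alternatively activated, or M2, state. A probe on one strand reads RNA of that strand, so a pair of probes on both strands of an interval can read different transcripts.

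Probe sequences are shown for the strands on which the results below turn, because an interval name says nothing about which bases were measured. Each is a 60-base probe, written 5′ to 3′ as deposited, with the mm9 position of the probe and its strand; capitals mark the hexamer AATAAA, the usual polyadenylation signal, where a probe holds it. The first 4 read strands with large gains under LPS, beside Mrpl39 and at Morrbid.
chr16:84706015-84706074 reverse: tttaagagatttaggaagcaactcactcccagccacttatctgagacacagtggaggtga
chr16:84707486-84707545 forward: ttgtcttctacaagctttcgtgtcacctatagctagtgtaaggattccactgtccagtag
chr2:128142199-128142258 reverse: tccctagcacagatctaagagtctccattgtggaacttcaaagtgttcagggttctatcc
chr2:128137480-128137539 reverse: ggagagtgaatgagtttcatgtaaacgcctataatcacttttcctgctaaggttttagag
The next 3 read a strand lowered by LPS, a strand raised by IL-4 and a strand beside Ptgs1 that IL-4 and LPS moved in opposite directions.
chr6:99474697-99474756 reverse: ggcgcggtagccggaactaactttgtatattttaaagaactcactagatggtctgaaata
chr19:46421689-46421748 forward: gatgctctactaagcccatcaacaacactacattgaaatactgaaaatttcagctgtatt
chr2:36113089-36113148 forward: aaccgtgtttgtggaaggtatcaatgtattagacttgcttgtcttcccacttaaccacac
The last pair read a strand lowered by LPS and in colony cells beside Tgif1, and a bright strand lowered in colony cells.
chr17:71185146-71185205 forward: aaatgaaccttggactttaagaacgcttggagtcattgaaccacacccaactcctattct
chr6:4843716-4843775 reverse: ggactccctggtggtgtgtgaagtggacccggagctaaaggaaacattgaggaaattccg

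The AATAAA hexamer was rarer in interval probes than in gene probes. It stood in 357 of 9882 tested interval probes (3.61%) and in 3394 of 24219 tested named-gene probes (14.0%), each searched on the probe's own strand. Of the strands described below it was found in probes beside Pvt1 and beside Socs3, whose sequences follow with the hexamer in capitals.
chr15:62046023-62082530 forward: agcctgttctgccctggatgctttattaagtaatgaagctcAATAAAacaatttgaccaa
chr11:117835849-117842574 forward: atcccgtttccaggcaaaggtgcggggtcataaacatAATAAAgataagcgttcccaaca
A match is a description of the letters and not a sign of where a transcript ends.

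A level below is log2 of the scanner's processed signal minus the 75th percentile of that signal on the same array, so that 0 is the brightness of a fairly bright probe. A probe was tested where the scanner software marked it as well above background in any group, on each of that group's arrays. Of the interval probes, 9882 of 16194 (61.0%) passed, against 24219 of 31220 named-gene probes (77.6%), and 3034 of 3543 intervals kept at least 1 probe. A probe that passed through a single group had to be bright there, so the counts below speak for probes that passed and not for all interval probes. Of the interval probes, 6990 (43.2%) were above background in all 4 groups and 6312 (39.0%) in none. Another 295 (1.82%) were above background in colony cells alone and 227 (1.40%) in LPS cells alone. In IL-4 cells alone there were 26 (0.161%) and in control cells alone 12 (0.0741%). Of named-gene probes these shares were 3.53%, 0.836%, 0.0897% and 0.0448% in the same order. Forward probes passed in 59.1% of 8184 cases and reverse probes in 63.0% of 8010. Detection followed base composition: 35.1% of interval probes under 35% GC passed, and 85.9% of those at 55% GC or more, against 67.1% and 90.6% of named-gene probes.

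Interval probes were less even between the arrays of a group than other probes. The median difference between the arrays of a group was 0.160 to 0.265 log2 for interval probes and 0.103 to 0.151 for other tested probes. On 7 arrays 51.9 to 56.3% of interval probes were well above background, and on LPS replicate 2 it was 65.3%; that array also held 105 spots marked uneven, against 0 to 5 on the others. Results on LPS are therefore given with and without it where it moves them. All arrays sat on 1 slide, control and IL-4 in one row and LPS and colony in the other. Row and group therefore cannot be told apart for LPS or colony cells against control, or for colony against IL-4 cells. The comparisons of LPS, IL-4 and colony cells with control share the 2 control arrays.

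LPS changed interval probes in both directions, in a balance that turned with the scaling. Calls were made with limma at an adjusted p (Benjamini-Hochberg over all 39417 tested probes) under 0.05. A call is counted as 2-fold where it also lies at least 1 log2 unit from the median change of all tested probes. By that rule 915 interval probes (9.26%) were at least 2-fold higher under LPS and 893 (9.04%) at least 2-fold lower, against 10.7% and 11.1% of all tested probes. Without the fold limit, 2127 interval probes were higher and 1726 lower, where 26.5% and 23.9% of all tested probes were called. Of these calls 55.2% were higher, but 28.3% with normexp background correction, 41.1% with median centring and 37.1% in the deposited table. Without LPS replicate 2 the 2-fold counts were 885 higher and 910 lower, and without LPS replicate 1 they were 1351 and 1035.

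**Figure D1:**
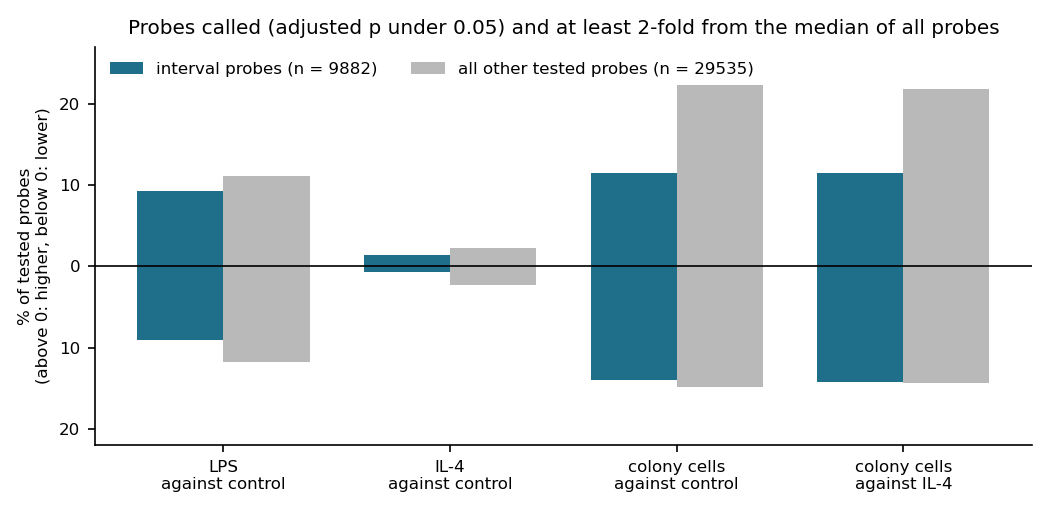
Percent of tested probes called and at least 2-fold from the median of all probes, higher (above 0) or lower (below 0), for 9882 interval probes (blue) and 29535 other tested probes (grey) in 4 comparisons. The interval probes stand below the other probes in every bar; the widest gap is for probes higher in colony cells than in control, 11.5% against 22.3%.

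The leading strands raised by LPS lay together on chromosome 16 next to Mrpl39, which encodes a protein of the mitochondrial ribosome. RefSeq's gene order, in a newer build used for names only, places Mir155hg, the host gene of the inflammatory microRNA miR-155, beside Mrpl39. On the reverse strand of chr16:84702353-84710928, an interval of 8576 bases, the brightest probe read −4.22 and −4.12 in control, −4.60 and −4.70 under IL-4, 2.94 and 2.55 under LPS, and −3.30 and −3.24 in colony cells. Both LPS arrays stood far above every other array, and the colony arrays stood above control and IL-4. The gain under LPS was 6.92 (SE 0.14, adjusted p = 4.2e-06 with limma), and its 3 probes rose by 120.9 to 385.2-fold. The same 3 probes were higher in colony cells than in control by 0.90 to 2.58.

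The forward strand beside Mrpl39 rose as well. In chr16:84707202-84707748, of 547 bases, all 3 forward probes were not well above background in control and at least 73.9 to 99.6-fold higher under LPS; such a bound sets the bright mean against the lowest signal well above background. The brightest of them read −7.96 and −6.65 in control, −8.16 and −7.98 under IL-4, 1.04 and 0.18 under LPS, and −5.24 and −5.34 in colony cells (adjusted p = 9.7e-05). A single forward probe at chr16:84708695-84708806 read −4.84 and −4.81 in control, −6.66 and −7.52 under IL-4, 3.38 and 3.08 under LPS, and −2.40 and −2.38 in colony cells. It was thus higher under LPS by 8.05 (SE 0.28, adjusted p = 1.6e-05) and at least 2.41-fold lower under IL-4 (adjusted p = 0.0063), where it was not well above background. Mrpl39 itself, 7.05 to 10.2 kb away, rose by 0.82 under LPS (adjusted p = 0.00079). On the reverse strand of chr16:84708005-84708675, between these strands, only 2 of 3 probes rose, over a range of −0.41 to 3.58.

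A second group of strands rose under LPS on chromosome 2 around Morrbid, a long noncoding RNA next to the apoptosis gene Bcl2l11. In chr2:128142035-128142481, of 447 bases, the brightest reverse probe read −5.45 and −5.84 in control, −5.70 and −5.25 under IL-4, −0.52 and −0.57 under LPS, and −1.91 and −1.86 in colony cells. LPS and colony arrays did not overlap with control or IL-4. The gain was 5.10 under LPS (SE 0.19, adjusted p = 1.9e-05) and 3.76 in colony cells (adjusted p = 2.4e-05), and the other probes were at least 33.0-fold and 40.7-fold higher under LPS. In chr2:128137419-128141735, of 4317 bases, the brightest reverse probe read −4.75 and −4.82 in control, −4.41 and −4.19 under IL-4, −0.21 and −0.30 under LPS, and −0.47 and −0.48 in colony cells. Its 3 probes rose by 19.9 to 23.0-fold under LPS, by 4.24 to 4.31 log2 in colony cells and by 0.48 to 0.84 under IL-4. The array's own Morrbid probe, 0.304 kb from this interval, read −6.92 and −6.02 in control, −5.02 and −4.28 under IL-4, −0.70 and −0.74 under LPS, and −2.02 and −1.54 in colony cells, and was at least 39.7-fold higher under LPS (adjusted p = 0.00014).

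Other strands that LPS raised were dim in control. In chr4:10407110-10724958 the single reverse probe tested read −8.21 and −8.12 in control, −8.40 and −8.21 under IL-4, 1.59 and 1.54 under LPS, and −8.57 and −8.44 in colony cells, at least 193-fold higher under LPS (adjusted p = 2.1e-06). In chr17:64063362-64066067 the reverse probe read −6.06 and −5.93 in control, −7.12 and −6.60 under IL-4, 1.66 and 1.31 under LPS, and −8.65 and −7.87 in colony cells, at least 178-fold higher (adjusted p = 2.8e-05). Both probes were bright under LPS and near the bottom of the scale elsewhere. All 3 forward probes of chr2:71205705-71226510 were at least 3.89 to 6.94-fold higher, and all 3 reverse probes of chr4:63736566-63744848 at least 3.81 to 7.98-fold; both strands lost their call when background was modelled with normexp. Beside Ptgs2, the prostaglandin synthase induced by LPS, the 2 tested reverse probes of chr1:152001112-152012796 were at least 6.30-fold and 2.17-fold higher (adjusted p = 0.00036 and 0.00017), a locus chosen after its values were seen.

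LPS lowered strands that stood alone as well as strands beside genes that fell with them. On the reverse strand of chr6:99472981-99484210, of 11230 bases, the brightest probe read −1.01 and −1.0 in control, −1.71 and −1.94 under IL-4, −5.98 and −5.37 under LPS, and −2.80 and −2.88 in colony cells. The order was control, IL-4, colony and LPS, with no overlap between groups. The loss under LPS was −4.67 (SE 0.21, adjusted p = 3.5e-05), or 25.4-fold, and the other 4 tested probes, dim under LPS, were at least 6.87 to 16.4-fold lower. All 5 also fell in colony cells, by −2.27 to −1.83. The nearest named gene, Eif4e3, which encodes a cap-binding protein, lay 91.3 kb away and changed by −1.27.

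On the forward strand of chr17:71183978-71185384 the brightest probe read 0.66 and 0.50 in control, 0.16 and 0.03 under IL-4, −3.20 and −2.91 under LPS, and −4.72 and −4.54 in colony cells. Its change was −3.64 under LPS (SE 0.13, adjusted p = 1.8e-05) and −5.21 in colony cells (adjusted p = 2.4e-06). Its 3 probes spanned −3.74 to −3.64 under LPS and −5.22 to −5.05 in colony cells. Tgif1, a repressor of TGF-beta signalling 8.24 kb away on the opposite strand, changed by 0.06 under LPS (adjusted p = 0.73) and by −1.63 in colony cells. On the reverse strand of chr11:112905201-113062945 the brightest probe read −0.33 and −0.38 in control, −0.81 and −0.83 under IL-4, −3.70 and −3.88 under LPS, and −4.29 and −4.39 in colony cells. It changed by −3.43 under LPS (SE 0.09, adjusted p = 7.1e-06) and by −3.98 in colony cells (adjusted p = 1.7e-06). On both strands the LPS and colony arrays stood below every control and IL-4 array.

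Strands inside or beside genes fell together with them in other places. The brightest forward probe of chr8:85609155-85615170, inside Rnf150, read 0.30 and 0.44 in control, −0.76 and −0.75 under IL-4, −5.07 and −3.81 under LPS, and −2.19 and −2.11 in colony cells. It changed by −4.82 under LPS (SE 0.39, adjusted p = 0.00028) and Rnf150, which encodes a RING finger protein, by −4.97 (adjusted p = 8.6e-06). The brightest reverse probe of chr13:94200051-94200598 read 1.55 and 1.46 in control, 1.07 and 1.24 under IL-4, −0.34 and −0.28 under LPS, and 1.18 and 1.43 in colony cells. It changed by −1.82 (SE 0.12, adjusted p = 0.00012) and Jmy, a p53 cofactor and actin nucleator 4.65 kb away, by −2.01 (adjusted p = 0.0012). The array's Mirt1 probe lies inside chr19:53517903-53540753, where 8 of 10 reverse probes were lower under LPS; the one with the largest change read −2.85 and −2.49 in control, −4.00 and −4.28 under IL-4, −7.66 and −7.35 under LPS, and −7.02 and −7.61 in colony cells. That probe was at least 11.1-fold lower (adjusted p = 5.6e-05), and the Mirt1 probe itself changed by −3.01 (SE 0.15, adjusted p = 4.8e-05).

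IL-4 changed far fewer interval probes. By the 2-fold rule 137 (1.39%) were higher and 69 (0.698%) lower, against 2.08% and 1.94% of all tested probes. Without the fold limit 390 were higher and 329 lower, where 7.87% and 7.29% of all tested probes were called; 54.2% of the calls were higher, and 42.7% with normexp. The count of calls moved with single arrays, from 199 without IL-4 replicate 2 and 237 without IL-4 replicate 1 to 482 without control replicate 1 and 902 without either LPS array, against 719 with all arrays.

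A strand raised by IL-4 in every setting run was the forward strand of chr19:46419916-46421753. Its brightest probe read −3.07 and −3.04 in control, 0.14 and 0.06 under IL-4, −1.22 and −1.52 under LPS, and −2.07 and −1.97 in colony cells. The IL-4 arrays stood highest and the control arrays lowest, with LPS and colony between them and no overlap. The gain under IL-4 was 3.16 (SE 0.12, adjusted p = 0.00016), over a range of 2.72 to 3.16 for its 3 probes, which gained 1.69 to 1.79 under LPS. The named neighbours changed little under IL-4: 2310034G01Rik on the opposite strand by −0.33 (adjusted p = 0.13), Cuedc2 by 0.03 and Fbxl15 by 0.13. RefSeq's gene order places Mir146b, a microRNA that dampens Toll-like receptor signalling, between Cuedc2 and 2310034G01Rik.

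Beside Ptgs1, the constitutive prostaglandin synthase, IL-4 and LPS moved interval probes in opposite directions. The brightest forward probe of chr2:36112819-36114110 read −2.23 and −2.10 in control, 0.06 and 0.05 under IL-4, −5.73 and −5.84 under LPS, and −0.57 and −0.81 in colony cells. IL-4 and colony arrays stood above control and LPS arrays below it. The change was 2.22 under IL-4 (adjusted p = 0.00037), −3.62 under LPS (SE 0.11, adjusted p = 1.1e-05) and 1.48 in colony cells, and 2 of its 3 probes were called under IL-4. Ptgs1, 5.12 kb away on the same strand, changed by 2.12 under IL-4 (adjusted p = 0.00026) and by −4.40 under LPS (adjusted p = 4.4e-06). In the neighbouring forward interval chr2:36112429-36112792 the brightest probe read 2.68 and 2.56 in control, 3.27 and 3.46 under IL-4, 2.13 and 2.24 under LPS, and 0.08 and 0.24 in colony cells, and changed by 0.75 under IL-4 (adjusted p = 0.011) and by −2.45 in colony cells. Its other probes gained 1.98 and 2.01 under IL-4 (adjusted p = 0.023 and 0.0062) and 1.60 and 1.56 in colony cells, so that probes of 1 strand differed in direction in colony cells. The IL-4 call of that strand, which needs all its probes, was lost without either control, IL-4 or colony array, and with quantile normalization.

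Several other IL-4 gains lost their call in some settings. Their size stayed alike where an array was left out, but some shrank under normexp. Both reverse probes of chr3:50320320-50411144 were at least 7.23-fold and 2.20-fold higher under IL-4; the brighter read −6.50 and −6.25 in control, −3.13 and −3.22 under IL-4, −5.73 and −4.97 under LPS, and −8.44 and −8.25 in colony cells (adjusted p = 0.0017). All 4 forward probes of chr9:65647428-65677119 rose, the brightest by 2.09 (SE 0.34, adjusted p = 0.015). Both calls were lost when any control or IL-4 array was left out, with medians of 2.91 to 3.22 and 2.18 to 2.37, and under normexp, with medians of 0.383 and 0.309. The call of chr9:65647428-65677119 was also lost with quantile normalization, at 2.30, and without either colony array, at 2.32. In chr10:94870971-94871658 a reverse probe read −6.77 and −6.79 in control, −3.30 and −3.63 under IL-4, −7.78 and −6.53 under LPS, and −2.73 and −2.63 in colony cells, at least 5.91-fold higher under IL-4 (adjusted p = 0.0056, lost under normexp). Socs2, which feeds back on cytokine signalling and lies 3.41 kb away, rose by 4.10 under IL-4 (adjusted p = 0.00016). All 3 forward probes of chr15:62046023-62082530, which holds the array's Pvt1 probe, rose under IL-4: the brightest by 0.62 (adjusted p = 0.0091), and the others by 1.87 and 1.91. Its probes were well above background on all arrays, and its call was lost without either IL-4 array, with medians of 1.84 and 1.85.

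Strands on chromosomes 7 and 3 fell under IL-4 and rose under LPS. The brightest reverse probe of chr7:111530578-111539097 read 0.31 and 0.38 in control, −0.76 and −0.89 under IL-4, 2.86 and 2.91 under LPS, and −2.39 and −2.54 in colony cells. It changed by −1.18 under IL-4 (SE 0.09, adjusted p = 0.0015), by 2.54 under LPS and by −2.81 in colony cells. The genes there are of the Trim30 family, interferon-induced ubiquitin ligases: Trim30c changed by −2.25 under IL-4, Trim30a by −1.17 and Trim30b by −2.13. These are near-identical copies, so the probes may share transcripts. The brightest reverse probe of chr3:65729664-65731697 read −2.65 and −3.03 in control, −3.94 and −4.48 under IL-4, −0.04 and −0.33 under LPS, and −1.52 and −1.35 in colony cells. It changed by −1.37 under IL-4 (SE 0.23, adjusted p = 0.017) and by 2.66 under LPS. The strand's IL-4 call was lost without either control array, IL-4 replicate 2 or either colony array. That call was also lost with no filter on dim probes and with control and IL-4 arrays alone.

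In colony cells many interval probes fell by a small amount and fewer moved by a large one. By the 2-fold rule 1132 (11.5%) were higher than in control and 1387 (14.0%) lower, against 19.6% and 14.6% of all tested probes. Without the fold limit 1293 were higher and 4530 lower, where 23.9% and 44.4% of all tested probes were called. The median change was −0.495 log2 for interval probes and −0.351 for all tested probes. With arrays scaled on the probes detected everywhere, the median of all probes was −0.0359 and the share of calls that were higher was 37.1% in place of 22.2%, and with normexp it was 8.96%. Against IL-4 cells, 1135 interval probes (11.5%) were higher and 1412 (14.3%) lower by the 2-fold rule, against 19.2% and 14.3% of all tested probes. Without the fold limit these were 1315 and 4523, where 23.5% and 44.8% of all tested probes were called.

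Markers of other cell types moved with these changes. Summed linear levels of 12 macrophage markers were 192 to 196 in colony cells, against 2153 to 2160 in control and 1585 to 1636 under IL-4, and 11 of the 12 were lower in colony cells. All 22 pan-leukocyte markers were lower, with sums of 252 to 255 against 1720 to 1769. Mesothelial markers summed to 420 to 433 against 0.131 to 0.146, with 11 of 12 higher and 8, Msln and Wt1 among them, not well above background in control. Fibroblast markers summed to 608 to 631 against 1.47 to 1.76, with 10 of 12 higher. Endothelial markers summed to 22.3 to 22.4 against 36.3 to 41.3, with 4 of 9 tested higher, 4 lower and Cdh5 not well above background in colony cells. Epithelial markers summed to 25.7 to 26.0 against 0.968 to 1.04, with 3 of 6 tested higher and 2 lower. Mast cell markers summed to 6.73 to 6.76 against 0.703 to 0.861, with 7 of 8 higher. Under LPS the mast cell sum was 8.62 to 9.19, but 1 of the 8 was called higher and 2 lower, so that this sum does not speak for each marker. Neutrophil markers summed to 148 to 164 against 208 to 218. Of these 10 markers 3 were higher and 2 lower, with a median change of 0.143, so that the sum does not speak for each. In bulk RNA fewer cells of a type and less RNA per cell cannot be told apart, and the part of these markers in the colony results was not tested.

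Strands raised in colony cells from levels near background lay at and away from named genes. All 3 forward probes of chr19:60220577-60238494, which holds the noncoding E330013P04Rik, rose, at least 43.3 to 76.3-fold; the brightest read −7.84 and −7.99 in control, −7.62 and −8.04 under IL-4, −6.67 and −5.77 under LPS, and −0.56 and −0.62 in colony cells (adjusted p = 1.2e-05). Both reverse probes of chr10:118427606-118430070, 69.8 kb from the noncoding Gm38403, were at least 35.6-fold and 60.6-fold higher; the brighter read −8.11 and −6.56 in control, −8.29 and −8.12 under IL-4, −8.24 and −5.43 under LPS, and −0.93 and −0.82 in colony cells (adjusted p = 0.0019). The colony arrays of both strands stood far above the macrophage arrays, which were spread near background. In chr15:32167516-32174427, which holds the snoRNA host gene Snhg18, all 5 reverse probes rose, and one that was dim in control read −8.28 and −8.19 there, −8.44 and −8.24 under IL-4, −8.41 and −8.09 under LPS, and 1.36 and 1.51 in colony cells. That probe was at least 176.3-fold higher (adjusted p = 7.4e-07), and the Snhg18 probe at least 194-fold.

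Strands at Ttll7 and Emx2 and 1 strand in the Hoxb cluster were also higher in colony cells. The brightest of 4 forward probes of chr3:146629425-146649125, at the tubulin polyglutamylase gene Ttll7, read −4.81 and −4.66 in control, −5.17 and −4.51 under IL-4, −4.61 and −4.85 under LPS, and 0.69 on both colony arrays. It rose by 5.43 (SE 0.22, adjusted p = 1.1e-05) and Ttll7 by 4.98 (adjusted p = 4.8e-05). Beside the homeobox gene Emx2, all 5 reverse probes of chr19:59498190-59531390 rose. A pair of them rose by 5.14 and 3.78, and 3 that were not well above background in control were at least 11.6 to 19.4-fold higher. The forward probes of that interval changed by −0.52 (adjusted p = 0.02) and −0.50 (adjusted p = 0.11). Emx2, 7.75 kb away, was at least 68.5-fold higher, and the probe for its antisense RNA Emx2os changed by 0.12 (adjusted p = 0.47). Inside the Hoxb cluster the brightest of 3 forward probes of chr11:96175764-96176029 read −5.61 and −6.41 in control, −5.57 and −6.46 under IL-4, −4.59 and −4.03 under LPS, and −2.35 and −2.15 in colony cells, a rise of 3.75 (SE 0.41, adjusted p = 0.00049). Hoxb5 rose by 4.31, Hoxb6 by 4.64 and Hoxb7 at least 225-fold, while Hoxb4, 6.86 kb away, changed by 0.06 (adjusted p = 0.58). Other strands of the cluster were mixed: both strands of chr11:96111499-96126224 and the forward strand of chr11:96112907-96125798 each held 1 probe called higher and 1 called lower in colony cells, with medians of −0.41, 1.51 and 0.79.

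Leading strands lowered in colony cells were mostly bright in macrophages, as a choice by the size of the loss favours bright probes. The brighter of 2 reverse probes of chr6:4841700-4847400 read 4.80 and 4.61 in control, 4.16 and 4.21 under IL-4, 5.29 and 5.37 under LPS, and −0.92 and −0.85 in colony cells. It changed by −5.59 (SE 0.09, adjusted p = 9e-07), and both probes fell by 48.2 to 51.7-fold. Whether these probes read the RNA of a protein-coding gene at another place in the genome was not tested. The brightest of 3 reverse probes of chr1:175653557-175671940, inside the interferon-inducible gene Ifi207, read 5.99 and 5.97 in control, 5.56 and 5.59 under IL-4, 5.85 and 5.93 under LPS, and 1.34 and 1.45 in colony cells. It changed by −4.58 (SE 0.08, adjusted p = 9.1e-07), Ifi207 by −4.59 and Ifi204 by −2.70. The brightest of 3 reverse probes of chr11:117792051-117811334, 16.1 kb from Socs3, read 5.41 and 5.45 in control, 4.51 and 4.63 under IL-4, 3.74 and 3.71 under LPS, and 0.07 and −0.00 in colony cells. It changed by −5.40 (SE 0.08, adjusted p = 7.4e-07), and Socs3, which feeds back on cytokine signalling, by 3.31. A forward probe of chr10:69842010-69842465 read −2.11 and −2.41 in control, −1.49 and −0.84 under IL-4, 1.98 and 3.02 under LPS, and −7.91 and −7.22 in colony cells, at least 17.5-fold lower in colony cells and higher by 4.76 under LPS (adjusted p = 0.00046). Against IL-4 cells the 5 reverse probes at Snhg18 were higher by 24.5 to 184.3-fold with dim probes at their bound.

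Probes of 1 interval strand moved together more than probes of opposite strands. Over 2651 strands with at least 2 tested probes, the changes of the brightest pair of probes correlated across strands with r = 0.446 under LPS, 0.364 under IL-4 and 0.686 in colony cells. Over 863 intervals with a tested probe on both strands, the brightest probe of each strand gave r = 0.0594, 0.0920 and 0.133. These pairs share arrays, and same-strand pairs lie closer, with a median gap of 82.5 bases against 903 bases. Within 300 bases the same-strand values were 0.516, 0.415 and 0.749 and the opposite-strand values 0.0825, 0.0489 and 0.223, so that same-strand values were also higher among near pairs. Where the brightest probe was 2-fold higher in colony cells, the second brightest of that strand was too in 181 of 250 cases (72.4%); under LPS it was in 56 of 209 (26.8%). On the opposite strand this held in 11 of 59 (18.6%) and 9 of 85 (10.6%).

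**Figure D2:**
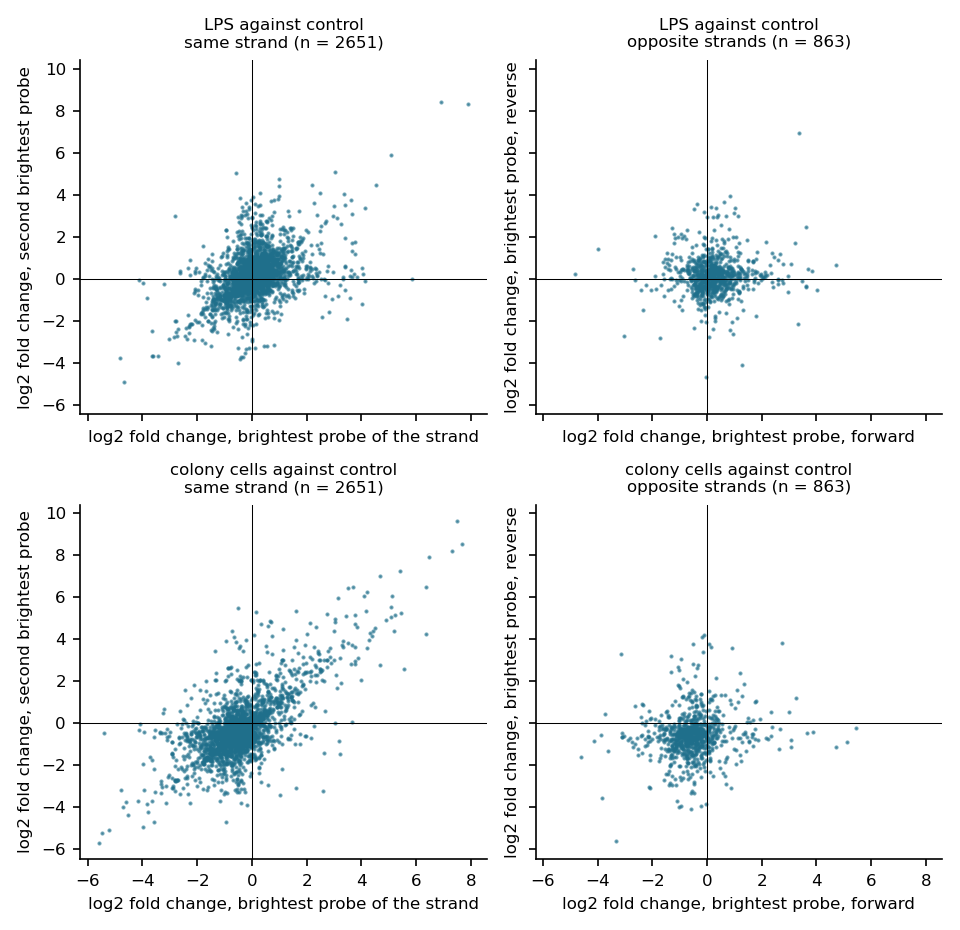
Log2 fold changes of pairs of interval probes under LPS (top) and in colony cells (bottom), for the 2 brightest probes of one strand (left, n = 2651) and the brightest probe of each strand of an interval (right, n = 863). Points of one strand spread along the diagonal, with r = 0.446 and 0.686, and points of opposite strands do not, with r = 0.0594 and 0.133.

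Probes of some strands were called in both directions. Under LPS, all tested probes were called higher on 157 of 2651 strands and all lower on 144, and 195 strands held calls in both directions. In colony cells the numbers were 167, 553 and 191, and under IL-4 they were 26, 20 and 9. Of intervals tested on both strands, the strands were called in opposite directions in 114 of 863 under LPS, 9 under IL-4 and 83 in colony cells. Both strands were called higher in 131 and lower in 38 under LPS, in 7 and 13 under IL-4, and in 22 and 369 in colony cells. Here a strand counts as called where at least 1 of its probes was called and none in the other direction. Of all tested probes 26.5% were called higher and 23.9% lower under LPS. Those shares were 7.87% and 7.29% under IL-4, and 23.9% and 44.4% in colony cells. At chr10:120116843-120182671 the called forward probes had a median of −0.76 under LPS and the reverse probes of 5.14. At chr15:73455424-73477275 these were 3.84 and −1.47. In colony cells chr4:146017200-146029700 gave 6.50 forward and −0.89 reverse, and chr9:36509939-36515389 gave −3.14 and 3.09.

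**Figure D3:**
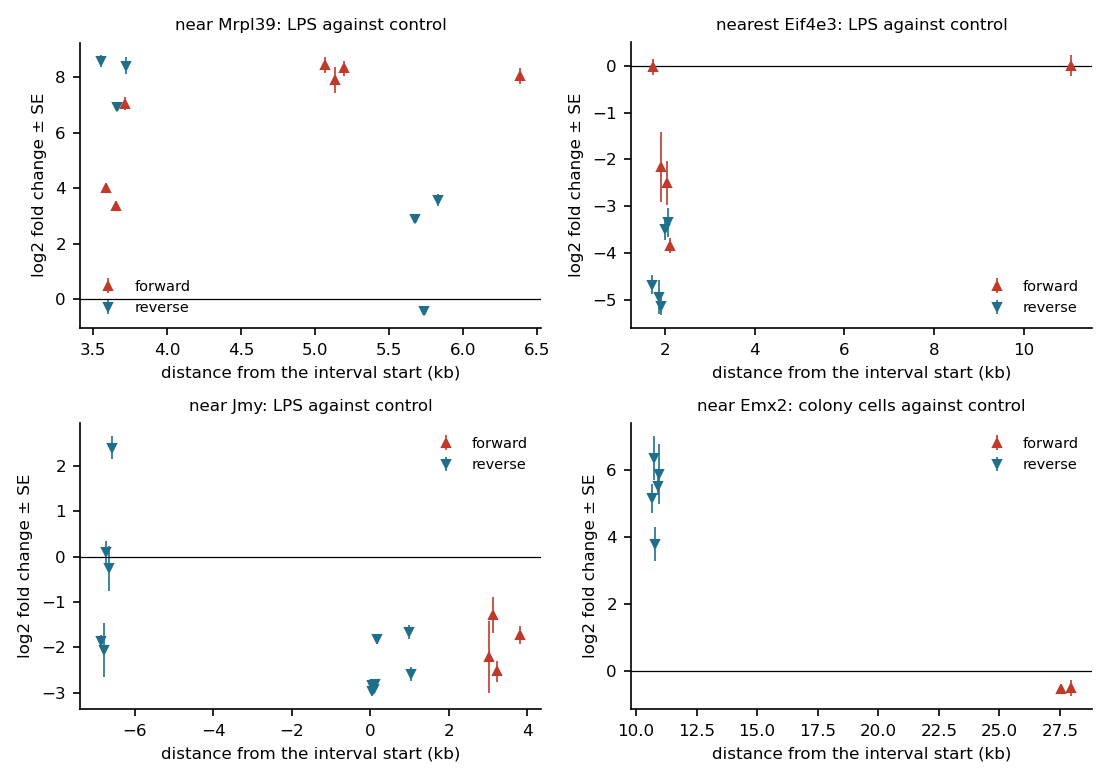
Log2 fold change with its standard error for every tested probe at 4 loci, by distance from the interval's start in kilobases, forward probes as red triangles and reverse probes as blue. Probes of a strand differ widely at some loci. Under LPS the reverse probes of chr13:94182877-94203852 near Jmy span −2.06 to 2.39, and the forward probes nearest Eif4e3 span −3.84 to −0.005. The reverse probes near Emx2 stand at fitted values of 3.78 to 6.33, with 3 of the 5 dim in control, where the forward probes stand at −0.52 and −0.50.

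Named genes near an interval probe were called in its direction more often than near an uncalled one. The nearest named-gene probe lay within 50 kb for 7388 of 9803 placed interval probes (75.4%), at a median distance over all of 18009 bases, and shares below are over the 6380 whose neighbour was tested. Where an interval probe was 2-fold higher under LPS, the neighbour was called higher in 41.2% of 544 cases and lower in 20.2%. Where it was 2-fold lower, the neighbour was lower in 52.3% of 646 and higher in 15.9%, and beside uncalled probes 27.2% were higher and 24.6% lower. In colony cells 62.2% of 711 neighbours of higher probes were higher and 66.0% of 930 neighbours of lower probes lower, against 29.1% higher and 38.5% lower beside uncalled probes. Neighbours are counted once per interval probe, so that several probes share a gene.

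The strand relation went with these shares. Beside interval probes that IL-4 raised, the neighbour on the same strand was higher in 64.4% of 45 cases and on the opposite strand in 11.1% of 36, against 9.23% beside uncalled probes. In colony cells the same-strand share was 71.0% of 511 and the opposite-strand share 39.5% of 200. For gains under LPS these were 43.1% of 281 and 39.2% of 263, and for losses under LPS 56.9% of 473 and 39.9% of 173. An interval strand held a named-gene probe of its own strand in 516 of 4610 cases (11.2%), 271 of them with a noncoding gene and 218 with a protein-coding one, so some interval probes may read the gene itself.

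**Figure D4:**
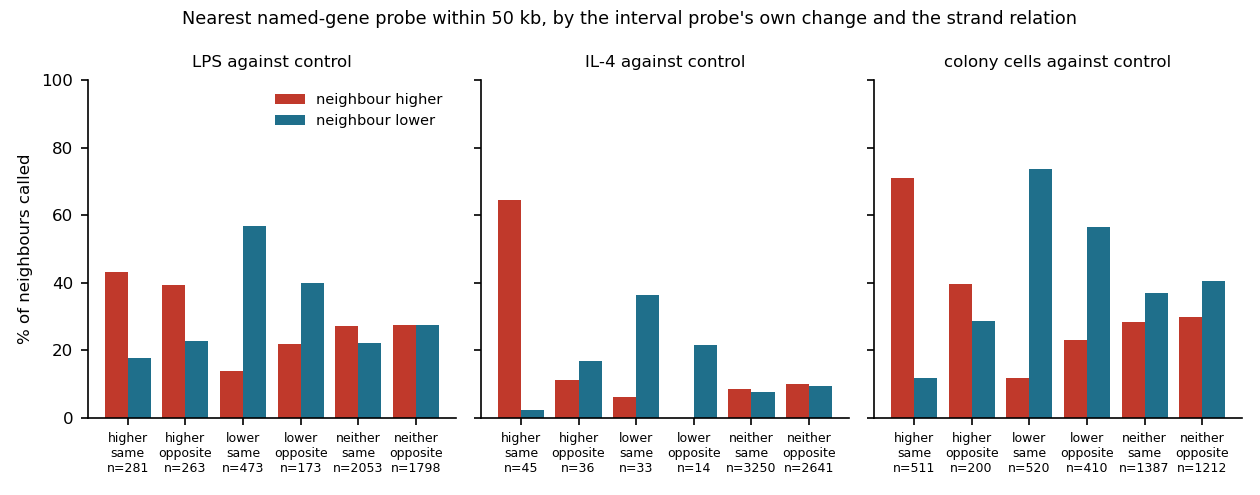
Percent of nearest named-gene probes within 50 kb called higher (red) or lower (blue), by whether the interval probe was 2-fold higher, 2-fold lower or not called, and by strand. Under IL-4, same-strand neighbours of raised interval probes were higher in 64.4% of 45 cases and opposite-strand neighbours in 11.1% of 36.

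Distance to the nearest named probe went with the share of interval probes raised by LPS. The 2-fold higher share under LPS was 7.71% of 3593 within 10 kb, 9.67% of 3795 at 10 to 50 kb, 10.3% of 1290 at 50 to 100 kb and 11.6% of 1125 beyond. The 2-fold lower shares were 12.1, 6.82, 8.29 and 7.91% in the same order, which is no steady trend. Under IL-4 the higher shares were 1.39, 0.975, 0.930 and 3.11%, and the lower shares 0.696, 0.711, 0.930 and 0.444%, again with no steady trend. In colony cells the shares stayed between 9.78 and 12.8% higher and 13.6 and 14.8% lower over all distance classes.

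Genes of macrophage activation had few interval probes beside them. Of 104 such genes on the array, 19 had tested interval probes within 50 kb, 126 probes in all, of which 27 were 2-fold higher and 10 lower under LPS, with a median change of 0.418 against 0.0747 for all tested probes, of which 10.7% and 11.1% passed the same rule. Under IL-4, 12 were higher and 2 lower, with a median of 0.0384 against −0.0148 and shares of 2.08% and 1.94% over all tested probes. In colony cells 12 were higher and 20 lower, against 19.6% and 14.6% of all tested probes. In chr16:23992037-24001037, 26.8 kb from the transcriptional repressor gene Bcl6, 5 of 6 forward probes rose under LPS, and one read −6.06 and −7.15 in control, −4.23 and −4.60 under IL-4, −1.67 and −2.16 under LPS, and −3.91 and −3.70 in colony cells, at least 17.1-fold higher under LPS (adjusted p = 0.00031). Bcl6 changed by 0.41. In chr11:53574182-53574644, 16.1 kb from the interferon regulatory factor gene Irf1, the tested reverse probe read 1.41 and 1.22 in control, 1.73 and 2.25 under IL-4, 5.05 and 5.84 under LPS, and −1.74 and −1.69 in colony cells, a gain of 4.13 under LPS (SE 0.30, adjusted p = 0.00018) where Irf1 gained 0.64. Beside Socs3, 3 of 4 forward probes of chr11:117835849-117842574 rose, one of them at least 11.1-fold (adjusted p = 0.0062); its LPS arrays read −3.67 and −1.45, and the call was lost under normexp. Of 97 lineage genes on the array, 17 had 86 interval probes within 50 kb, of which 6 were 2-fold higher and 3 lower under LPS and 13 and 11 in colony cells, below the shares of all tested probes just given.

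Listed long noncoding RNAs with a named probe were read beside the intervals. Of 79 listed, 52 were on the array and 42 were tested. Under LPS 9 were called higher and 16 lower, where 26.5% and 23.9% of all tested probes were called; 1 of the 9, Gm6377, is protein-coding in RefSeq's table. Under IL-4 the counts were 6 and 6, where 7.87% and 7.29% were called, and in colony cells 21 and 15, where 23.9% and 44.4% were called. Under LPS, Mirt2 was at least 9.53-fold higher (adjusted p = 3e-05), and Peg13 changed by −2.37, Firre by −2.10 and the paraspeckle scaffold Neat1 by −1.17. In colony cells H19, the imprinted host of miR-675, rose by 5.16, and Neat1 changed by −2.11. Xist, which coats the inactive X chromosome, was not well above background on any macrophage array. It read 0.88 and 0.78 in colony cells, at least 116-fold higher than in control, where Tsix was at least 9.10-fold lower in colony cells. The sex of the mice is not given, and a difference in sex between the cells of the groups was not tested.

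Few interval probes matched microRNA precursors. Interval probes of a single chromosome were left out of the search, so the counts cover the others. Of 1005 RefSeq hairpins searched with at least 25 shared bases, 16 probes found a match, 9 in the orientation of the hairpin and 7 in the opposite one, which would read the other strand. Of these, 7 were tested, 4 in the orientation of the hairpin. Both probes below come from chr15:85412264-85549139, forward strand, and capitals mark the bases they share with the hairpin of let-7c-2, a member of the let-7 family that restrains growth genes.
upstream let-7c-2 probe: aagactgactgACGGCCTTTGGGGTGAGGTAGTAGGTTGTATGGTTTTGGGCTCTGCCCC
downstream let-7c-2 probe: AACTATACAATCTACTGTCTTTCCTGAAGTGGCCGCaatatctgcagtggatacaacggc
The first read −3.83 and −3.96 in control, −4.02 and −4.37 under IL-4, −4.60 and −3.63 under LPS, and −3.0 and −3.13 in colony cells, and changed by 0.83 in colony cells (adjusted p = 0.063). The second was not well above background in control and at least 3.21-fold higher in colony cells (adjusted p = 0.0006), and part of its capitals also matched the hairpin of let-7a-1. Both stood higher on the colony arrays than on the control arrays. A probe of chr12:110973190-110987668 that shares 41 bases with the hairpin of Mir410 rose by 1.14 under IL-4 (adjusted p = 0.0034).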

How the data were processed

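RNA was labelled with Cy3 and hybridised to 1-colour Agilent arrays, 1 per sample. The deposited scanner tables hold a processed intensity per spot and 0 or 1 marks for signal above background, made with Feature Extraction 10.7.3.1 per the file headers, which also give probe positions in mm9. A deposited value table holds log2 values for 34119 probes; each column equals the log2 scanner signal minus a constant per array whose nature is not given (column medians 2.53 to 2.96), and it served as an alternative. The submitters' processing notes name Partek 6.4 and RMA, with no role.

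Spots the scanner marked as uneven or as outliers were dropped, spots of a probe averaged, and levels set as log2 intensity minus each array's 75th percentile. All 8 arrays entered 1 fit in limma 3.58.1 (R 4.3.3), with Benjamini-Hochberg adjustment over 39417 probes. With 2 arrays a group, an exact permutation test cannot go below p = 0.333. Named strands were, per comparison, up to 6 each way by median change among strands with at least 2 tested probes all called in 1 direction, then the 3 leading other probes each way, then up to 10 strands within 50 kb of each gene list and up to 5 intervals whose strands moved apart, with their nearest named genes; exceptions are marked. The members, lists and rules were chosen with earlier results of these data known. Fits were tested on simulated data. RefSeq tables of GRCm38.p6 gave gene order and names only; hairpins are RefSeq's. A locus raised in colony cells is not reported here.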

Additional observations from a re-analysis of the deposited data

How the results depend on the processing

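Array number limits the precision: 2 arrays a group, with interval probes dimmer and less even than gene probes. Of 90 named results, 68 kept their direction and call in every setting run; over all settings 1610 of 1709 values did, 96 lost the call and 3 reversed. The reversals came with normexp background: chr11:96173788-96174352_F at −0.112, chr13:78370478-78371404_F at −0.422 and chr11:96112907-96125798_F at −0.205; their cause was not tested.

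Counts of called interval probes moved as follows, the cause not tested except where fewer probes or arrays entered. With 1 probe per interval name, LPS gave 1677 (656 by the 2-fold rule), IL-4 335 (62), colony cells 2507 (847) and colony against IL-4 cells 2534 (881). With normexp the 2-fold counts were 558, 44, 938 and 1031, and with probes above background on all arrays 1083, 104, 1411 and 1393. IL-4 calls were 343 with median centring, 398 with no filter, 332 in the deposited table and 474 with control and IL-4 arrays alone. Leaving out 1 array gave 199 to 902 IL-4 calls, and 128 to 249 by the 2-fold rule.

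The share of calls that were higher, 55.2% under LPS, was 28.3% with normexp, 41.1% with median centring and 37.1% in the deposited table. Under IL-4 it was 54.2% and 42.7% with normexp. In colony cells it was 22.2%, 8.96% with normexp and 37.1% scaled on probes detected everywhere, and against IL-4 cells 22.5%, 11.5% and 39.1%. Of 2-fold calls, 50.6% were higher under LPS and 63.1% with normexp, 66.5% and 95.5% under IL-4, and 44.9% and 57.2% in colony cells.

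Within 10 kb, neighbours moved with the interval probe in 44.5% of gains and 56.4% of losses under LPS, and in 53.3% and 54.2% under IL-4. In colony cells these shares were 67.8% and 76.1%, and against IL-4 cells 73.0% and 75.4%. With normexp the shares for losses were 67.1% of 152 under LPS and 100% of 2 under IL-4. They were 77.7% of 282 in colony cells and 80.6% of 330 against IL-4 cells. The IL-4 share for losses rests on 2 interval probes, too few to say how neighbours moved. For gains the normexp shares were 43.75% of 224 under LPS and 44.8% of 29 under IL-4. In colony cells that share was 61.2% of 335, and against IL-4 cells 64.9% of 348.

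The replicate numbers do not pair the samples (correlations of deviations −0.143 to 0.0404); with the replicate block the calls were 3632 under LPS, 483 under IL-4, 5684 in colony cells and 5699 against IL-4 cells.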
